A study of Mus musculus with 14 samples.

Results

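The Dectin-1 cluster is a run of genes for C-type lectin-like receptors on mouse chromosome 6, named here for Clec7a, the gene of Dectin-1. The 9 genes described were chosen by name and not by a cut on any measured value, though earlier results of these data were known. They are Clec7a, Clec12a, Clec9a, Clec1b, Clec1a, Olr1, Clec2d, Klrd1 and Klrk1. These are 9 of the 54955 genes of the deposited table, each held by 1 row. The libraries came from the fat of C57BL/6 mice aged 21 weeks after birth, 7 of them labelled as Dectin-1 knockouts (KO, replicates 1 to 7) and 7 as wild type (WT, replicates 3 to 9). No treatment is named in the labels, nor are the targeted allele, the sex of the mice or the fat depot. Each library is labelled as its own sample, and nothing says whether any mice shared a litter or cage. All levels are in TPM, a share of all transcripts in the library scaled by gene length, so that levels of different genes can be set side by side.

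Proteins of this cluster are single-pass membrane receptors with an extracellular C-type lectin-like domain. The genes nearest Clec7a are known mainly from myeloid cells, platelets and endothelium, whereas the Klr genes at the far end are receptors of natural killer (NK) and T cells. Dectin-1 binds fungal β-glucan, and its short cytoplasmic tail carries a tyrosine motif that recruits the kinase Syk, after which Card9, Bcl10 and Malt1 pass the signal on. In adipose tissue such receptors are carried by macrophages, dendritic cells and lymphocytes, and by lymph node tissue where a piece of fat holds any.

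The libraries held adipose tissue with varying amounts of other tissue. The adipocyte gene Adipoq was at 683 TPM or more in all 14 libraries. The B-cell gene Cd79a was at 1.52 TPM in KO replicate 7, 0.62 TPM in WT replicate 4 and 1.31 TPM in WT replicate 7, and at 177 TPM or more in the other 11 libraries. The muscle gene Mylpf ranged from 3.75 to 2153 TPM. All 9 adipocyte markers had negative fold changes in KO (median -0.57 on the log2 scale) and all 14 T cell markers positive ones (median 1.01). In limma 0 were called in either list, beside 0.0204% of all genes tested. At an unadjusted p under 0.05 were 4 of the adipocyte markers, all lower in KO, beside 6.74% of all genes. Of the T cell markers 0 were. Because the tissue was measured in bulk, fewer cells of a type and less RNA per cell cannot be told apart. Values without these 3 libraries, and fits with the mean log2 level of the B cell markers as a covariate, are therefore given for the cluster genes tested. They are not given for the fold changes of the other gene lists.

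Of the 9 genes, 8 reached 1 TPM in 7 or more libraries and were tested, and Olr1 did not. Clec2d was the most abundant, with a mean of 144 TPM over the 14 libraries, followed by Klrd1 at 20.7, Klrk1 at 9.92, Clec7a at 8.97, Clec12a at 5.99, Clec1b at 3.25, Clec9a at 3.09, Clec1a at 2.05 and Olr1 at 0.0614 TPM. The ends of this order held in every library: Clec2d exceeded Klrd1, and Clec1a exceeded Olr1, in 14 of 14. The middle of the order differed with the label. Klrk1 exceeded Clec7a in 7 of 7 KO libraries and in 1 of 7 WT libraries, and Clec7a exceeded Clec12a in 3 of 7 KO libraries and in 7 of 7 WT libraries. Some of these ranks were near ties. Clec7a and Klrk1 stood at 15.85 and 15.73 TPM in WT replicate 3, and at 10.29 and 10.64 TPM in KO replicate 4. In WT replicates 4 and 7, which held few B-cell transcripts, Klrk1 was at 0.37 and 1.28 TPM. Clec1b and Clec9a did not separate, since Clec1b was the higher in 2 of 7 KO and 5 of 7 WT libraries.

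**Figure D1:**
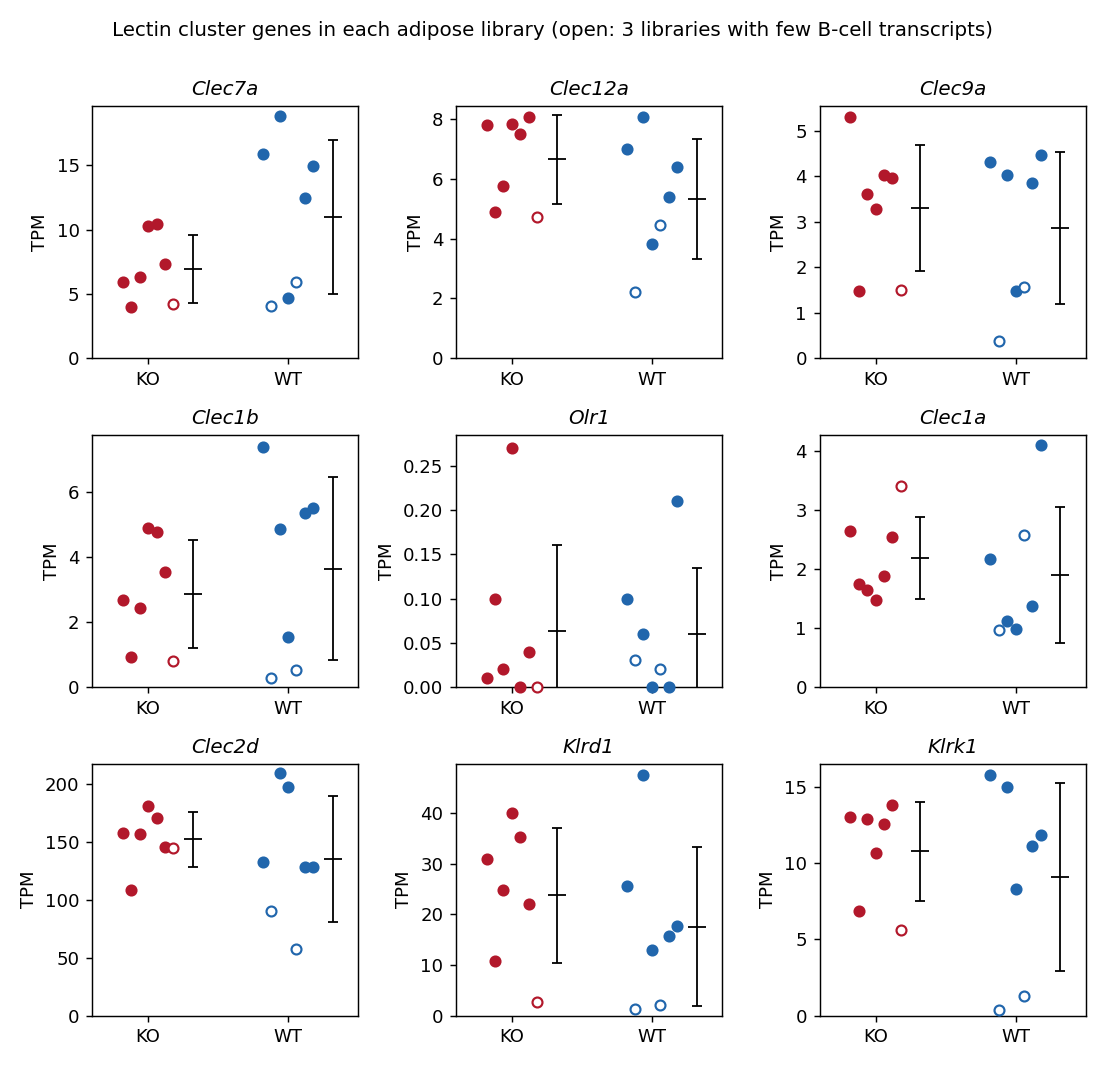
TPM (linear axes starting at 0) of the 9 genes in each KO and WT library, with the group mean and SD beside the points (n = 7 each); open points are KO replicate 7 and WT replicates 4 and 7. The KO and WT points overlap for all 9 genes, and 4 of the 7 WT libraries lie above every KO library for Clec7a.

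Among 14719 genes tested with limma, 0.0204% were changed between KO and WT at an adjusted p under 0.05, and 0 of the 8 cluster genes tested were among them. At an unadjusted p under 0.05, 11.4% of all genes passed (4.67% higher and 6.74% lower in KO) and 0 of these 8. The KO and WT libraries did not overlap for 0.319% of the genes tested and for 0 of the 9 cluster genes. The fold change, taken as KO minus WT in log2(TPM + 1), was negative for Clec7a and Clec1b and positive for the other 6 genes tested, with a median of 0.25, beside 0.04 over all genes tested. The adjusted p-values of the 8 lay between 0.59 and 0.94, and each 95% interval included 0. With the B cell marker level as a covariate, the fold change of Clec7a was -0.69 (limma, adjusted p = 0.28, unadjusted p = 0.014) and that of Clec1b -0.44 (adjusted p = 0.51). In that fit Klrd1 stood at 0.10, Klrk1 at 0.18, Clec12a at 0.18, Clec2d at 0.12, Clec1a at 0.23 and Clec9a at 0.00018, with 0 of the 8 called.

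**Figure D2:**
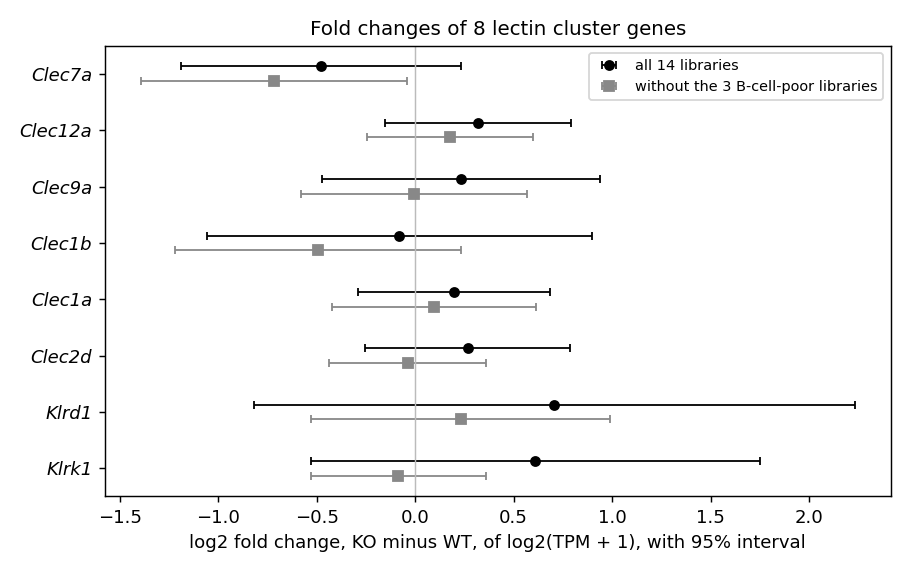
Fold changes (KO minus WT in log2(TPM + 1), horizontal axis) of the 8 genes tested, with their 95% intervals from limma, over all 14 libraries (black circles) and without KO replicate 7 and WT replicates 4 and 7 (grey squares). Clec7a is the gene farthest to the left in both fits, at -0.48 and -0.72, while Clec12a stands at 0.32 and 0.18.

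Clec7a, the gene targeted in the KO mice, was read in every KO library. It stood at 5.92, 4.02, 6.33, 10.3, 10.5, 7.34 and 4.24 TPM in KO replicates 1 to 7, against 15.9, 4.10, 18.9, 4.72, 5.96, 12.5 and 14.9 TPM in WT replicates 3 to 9. WT replicates 3, 5, 8 and 9 lay above every KO library, while WT replicates 4, 6 and 7 lay within the KO range. WT replicate 6 was low in Clec7a, with Cd79a at 529 TPM. Its summed B cell markers were at 1146 TPM, beside 965 to 1513 TPM in WT replicates 3, 5, 8 and 9. Its summed T cell markers were at 504 TPM, beside 967 to 1880 TPM in those libraries. Its summed macrophage markers were at 658 TPM, beside 853 to 1240 TPM. In limma the log2 fold change of Clec7a was -0.48 with a standard error (SE) of 0.33, and its 95% interval ran from -1.19 to 0.24 (adjusted p = 0.59). Without the 3 libraries of few B-cell transcripts it was -0.72 ± 0.31 (limma, adjusted p = 0.46, unadjusted p = 0.039). In the 10 libraries whose replicate numbers occur in both groups it was -0.14. A gene-level TPM value does not show which exons were read, so these values neither check nor contradict the labels.

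Clec12a encodes MICL, an inhibitory receptor of myeloid cells that senses uric acid crystals and dead cells. It lies in the same cluster, on the other strand from Clec7a. It stood at 7.79, 4.89, 5.75, 7.83, 7.51, 8.07 and 4.71 TPM in KO replicates 1 to 7, against 7.01, 2.20, 8.06, 3.81, 4.47, 5.38 and 6.39 TPM in WT replicates 3 to 9. The groups overlapped, with means of 6.65 ± 1.48 TPM in KO libraries and 5.33 ± 2.01 TPM in WT libraries (SD, n = 7 each). Its log2 fold change of 0.32 had an SE of 0.22 and an interval from -0.15 to 0.79 (limma, adjusted p = 0.59).

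Promoter sequences are shown for Clec7a and Clec12a, the pair set against each other next, and for Klrk1, the lymphocyte receptor that changed places with Clec7a in the order of levels. Each is the 250 bases before the transcript start in the RefSeq tables of build GRCm38.p6, written 5′ to 3′ on the gene's own strand. Clec7a has 2 starts listed there, and only the first listed was examined. Capitals mark GAGGAA or TTCCTC, the core bound by the myeloid factor PU.1 read on either strand, and TGTGGT or ACCACA, the core bound by RUNX factors. The Clec7a stretch is chr6:129472780-129473029 on the minus strand, that of Clec12a chr6:129349994-129350243 on the plus strand and that of Klrk1 chr6:129623865-129624114 on the minus strand.
Clec7a: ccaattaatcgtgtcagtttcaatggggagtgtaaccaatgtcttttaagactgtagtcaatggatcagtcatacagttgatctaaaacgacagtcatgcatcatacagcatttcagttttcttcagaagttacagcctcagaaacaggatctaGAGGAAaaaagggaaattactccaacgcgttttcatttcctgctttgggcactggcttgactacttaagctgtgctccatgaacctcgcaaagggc
Clec12a: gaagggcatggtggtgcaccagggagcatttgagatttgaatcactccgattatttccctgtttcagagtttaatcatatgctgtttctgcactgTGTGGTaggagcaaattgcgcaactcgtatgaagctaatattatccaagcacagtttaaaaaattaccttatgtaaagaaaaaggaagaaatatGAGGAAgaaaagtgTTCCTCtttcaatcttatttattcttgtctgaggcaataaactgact
Klrk1: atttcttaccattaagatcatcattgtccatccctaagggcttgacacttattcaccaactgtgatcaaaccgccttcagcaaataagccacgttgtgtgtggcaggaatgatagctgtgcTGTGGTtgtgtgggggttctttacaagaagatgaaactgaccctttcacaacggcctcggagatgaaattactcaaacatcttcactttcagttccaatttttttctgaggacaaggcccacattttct

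The Clec7a stretch holds 1 PU.1 core, which begins 96 bases before the start. The Clec12a stretch holds 2 in opposite directions, beginning 61 and 47 bases before the start, and 1 RUNX core at 155 bases. The Klrk1 stretch holds no PU.1 core and 1 RUNX core, 129 bases before the start. Of the 7 cluster genes in the table, 3 held the PU.1 core (Clec7a, Clec12a and Olr1) and 2 the RUNX core (Clec12a and Klrk1). Over 27025 promoters of the same length, 23.1% held the PU.1 core, 14.2% the RUNX core and 3.24% both. A match is a description of letters and not a measured binding site. The cores do not overlap each other in these stretches.

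Set against Clec12a in the same library, Clec7a was lower in KO. This comparison, and those with the other neighbours, were chosen after their values were seen. The ratio of Clec7a TPM to Clec12a TPM was 0.76, 0.82, 1.10, 1.31, 1.39, 0.91 and 0.90 in KO replicates 1 to 7, against 2.26, 1.86, 2.34, 1.24, 1.33, 2.32 and 2.34 in WT replicates 3 to 9. Above all KO libraries lay 5 of the 7 WT libraries, and 5 of the 7 KO libraries lay below all WT libraries. WT replicates 6 and 7 lay within the KO range. The mean ratio was 1.03 ± 0.25 over the KO libraries and 1.96 ± 0.49 over the WT libraries (SD, n = 7 each). On the log2(TPM + 1) scale, Clec7a minus Clec12a was 0.012 ± 0.30 in KO and 0.81 ± 0.38 in WT, a difference of -0.80 (2-sided exact permutation p = 0.0035, adjusted p = 0.012 over the 7 neighbours). With 1 library left out the difference ranged from -0.89 to -0.74 and its adjusted p from 0.0051 to 0.020. It was -0.89 without KO replicate 7 and WT replicates 4 and 7 (exact permutation, adjusted p = 0.030), and -0.56 in the 10 libraries with shared replicate numbers (adjusted p = 0.13). The plain TPM ratio does not depend on what else takes up the TPM total. The tested log2(TPM + 1) difference does, through the added 1, and was -0.90 with 0.1 added instead. Both also vary with the mix of cells that carry each gene, whose part was not tested.

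**Figure D3:**
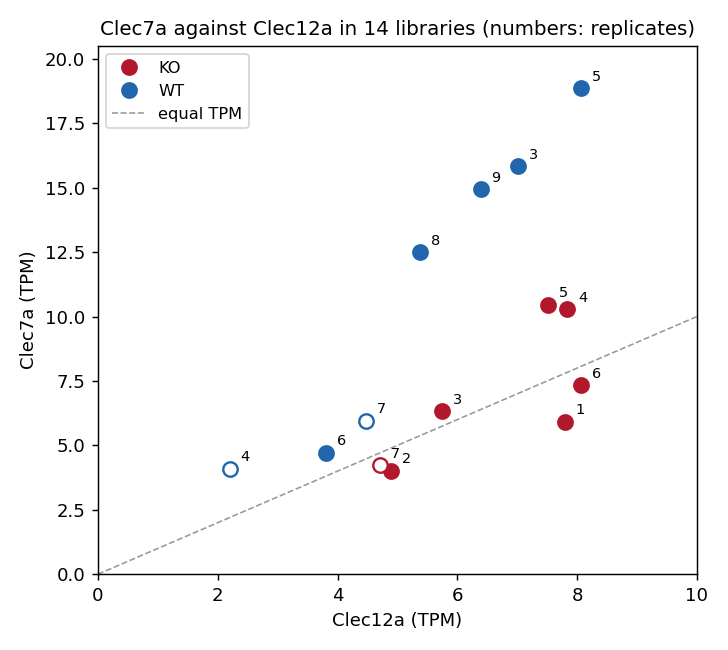
Clec7a TPM (vertical axis) against Clec12a TPM (horizontal axis) in each of the 14 libraries, with replicate numbers; the dashed line marks equal TPM and open points are KO replicate 7 and WT replicates 4 and 7. All 7 WT libraries lie above the line, with ratios of 1.24 to 2.34, and 3 of the 7 KO libraries do, with KO ratios of 0.76 to 1.39.

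The other neighbours gave differences of the same sign. Each difference equals the fold change of Clec7a minus that of the neighbour. Clec7a had the lowest fold change of the cluster genes tested (-0.48, with Clec1b next at -0.081). All 7 differences were therefore bound to be negative, and only their sizes and spread are informative. Clec7a minus Clec9a averaged 0.89 ± 0.42 in KO libraries and 1.60 ± 0.27 in WT libraries, a difference of -0.71 (2-sided exact permutation p = 0.0012, adjusted p = 0.0082 over the 7 neighbours). On this measure 6 of 7 KO libraries lay below all WT libraries. Without the 3 libraries of few B-cell transcripts the difference was -0.71 (adjusted p = 0.030), and in the 10 libraries with shared numbers -0.62 (adjusted p = 0.11). Clec7a minus Klrk1 was -0.57 ± 0.37 in KO and 0.51 ± 0.92 in WT, a difference of -1.09 (exact permutation p = 0.0082, adjusted p = 0.019), which did not pass without the 3 libraries (-0.63, adjusted p = 0.064) or in the 10 (adjusted p = 0.13). The differences against Clec2d, Klrd1, Clec1b and Clec1a were -0.74, -1.19, -0.40 and -0.67 and did not pass (exact permutation, adjusted p = 0.061, 0.061, 0.094 and 0.11). Without the 3 libraries the Klrd1 difference was -0.95 and passed (exact permutation, adjusted p = 0.030). With 1 library left out, the Clec2d difference passed without WT replicate 6 (adjusted p = 0.0051) and the Klrd1 difference without KO replicate 7, WT replicate 5 or WT replicate 6 (adjusted p = 0.014, 0.049 and 0.039). All 7 differences contain Clec7a and come from the same libraries, so they are not 7 separate pieces of evidence.

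**Figure D4:**
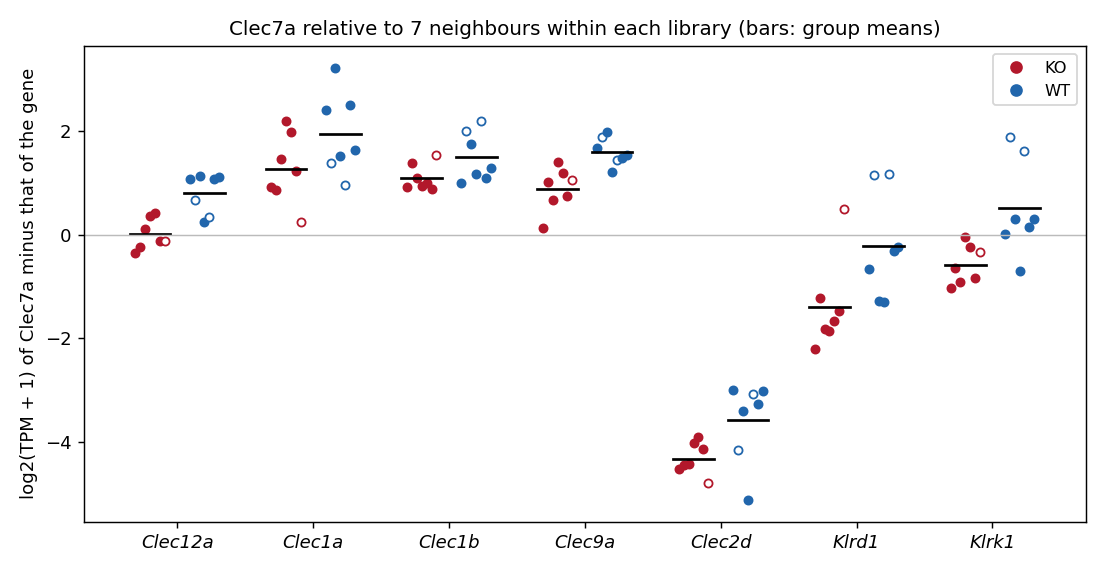
The log2(TPM + 1) of Clec7a minus that of each of 7 neighbours (vertical axis) in each KO and WT library; black bars are group means (n = 7 each) and open points are KO replicate 7 and WT replicates 4 and 7. The KO mean lies below the WT mean for all 7 neighbours, by 0.40 on the log2 scale for Clec1b and by 1.19 for Klrd1. The shared sign follows from Clec7a having the lowest fold change of the cluster genes tested.

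Each gene was also set against a list of markers of cells known to carry it, in 9 differences. The lists were chosen with earlier results of these data known. Clec7a minus the mean of 14 macrophage markers averaged -1.39 ± 0.34 in KO libraries and -1.35 ± 0.49 in WT libraries (SD, n = 7 each), and the means differed by -0.043 (2-sided exact permutation p = 0.85, adjusted p = 0.99). Clec12a minus the same mean was -1.41 ± 0.27 in KO and -2.16 ± 0.34 in WT, a difference of 0.75 (exact permutation p = 0.0017, adjusted p = 0.016 over the 9 differences). Here 6 of 7 KO libraries lay above all WT libraries. That difference is the 0.32 of Clec12a itself minus the -0.43 of the macrophage markers. Their summed level was 307 to 635 TPM in KO and 286 to 1240 TPM in WT. Their mean log2 level was 4.32 ± 0.33 in KO and 4.75 ± 0.65 in WT. Of these markers 13 of 14 had negative fold changes, with a median of -0.50. In limma 0 passed the threshold, beside 0.0204% of all genes tested. At an unadjusted p under 0.05 were 6, all lower in KO, beside 6.74% of all genes. The Clec12a difference was 0.75 without KO replicate 7 and WT replicates 4 and 7 (adjusted p = 0.078) and 0.60 in the 10 libraries with shared numbers (adjusted p = 0.21).

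Against other myeloid lists, chosen after the values were seen, the Clec7a differences were negative and those of Clec12a positive, though 2 of the Clec12a values turned sign in the 10 libraries with shared numbers (-0.10 for cDC1 and -0.045 for other dendritic cells). Clec7a minus 8 markers of type 1 conventional dendritic cells (cDC1) was -0.48 ± 0.39 in KO and 0.23 ± 0.32 in WT, a difference of -0.71 (exact permutation p = 0.0064, adjusted p = 0.038 over 6 such differences). Clec12a minus the same list differed by 0.09 (exact permutation p = 0.70, adjusted p = 0.73). The Clec7a differences against other dendritic cell markers and against monocyte and neutrophil markers were -0.67 and -0.46 (exact permutation p = 0.033 and 0.028, adjusted p = 0.066 for both). Those of Clec12a were 0.12 and 0.34 (exact permutation p = 0.73 and 0.044, adjusted p = 0.73 and 0.066). Without KO replicate 7 and WT replicates 4 and 7, Clec7a against the other dendritic cell markers was -0.62 and Clec12a against the monocyte and neutrophil markers 0.43 (exact permutation, adjusted p = 0.022 for both). With 1 library left out, these 2 differences passed without KO replicate 7 or WT replicate 6 (adjusted p = 0.0087 and 0.043) and without WT replicate 7 (0.017), and Clec7a against the monocyte list passed without KO replicate 5 or WT replicate 6 (0.042 and 0.026), and with a pseudocount of 0.1 (-0.62, adjusted p = 0.038). The cDC1 call for Clec7a was lost without KO replicate 1, 2, 3 or 6 (adjusted p = 0.063 each), without WT replicate 4 or 5 (0.073 each) and without WT replicate 9 (0.059), and in the 10 libraries with shared numbers (0.33). The Clec7a difference was thus -0.043 beside the macrophage list and between -0.71 and -0.46 beside the dendritic and monocyte lists.

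Clec9a encodes DNGR-1, a receptor of cDC1 that binds actin filaments exposed by dead cells. It stood at 5.30, 1.47, 3.61, 3.28, 4.03, 3.97 and 1.51 TPM in KO replicates 1 to 7, against 4.31, 0.38, 4.04, 1.47, 1.57, 3.85 and 4.47 TPM in WT replicates 3 to 9. In both groups it was low in the libraries with few B-cell transcripts and in 1 other library, KO replicate 2 or WT replicate 6. For Clec9a the log2 fold change was 0.23, with an SE of 0.33 and an interval from -0.47 to 0.94 (limma, adjusted p = 0.77). Relative to the cDC1 markers it averaged -1.37 ± 0.37 in KO libraries and -1.37 ± 0.22 in WT libraries (SD; 2-sided exact permutation p = 0.99).

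Clec1b encodes CLEC-2, the receptor by which platelets bind podoplanin. It stood at 2.67, 0.93, 2.42, 4.89, 4.76, 3.53 and 0.81 TPM in KO replicates 1 to 7, against 7.40, 0.27, 4.87, 1.55, 0.51, 5.34 and 5.52 TPM in WT replicates 3 to 9. Both groups spread widely, with a coefficient of variation of 57.7% in KO and 77.4% in WT. Its log2 fold change of -0.081 had an SE of 0.46 and an interval from -1.06 to 0.90 (limma, adjusted p = 0.94), and its sign turned in 6 of 14 fits that left out 1 library. Without the 3 libraries of few B-cell transcripts it was -0.49 (adjusted p = 0.67). Pdpn, the gene of its ligand podoplanin, stood at 3.52 ± 0.90 TPM in KO and 6.68 ± 3.28 TPM in WT (SD, n = 7 each), a log2 fold change of -0.66 with an SE of 0.27 (limma, adjusted p = 0.40).

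Clec1a encodes CLEC-1, a receptor of endothelial and some myeloid cells that binds fungal melanin. It stood at 2.64, 1.75, 1.65, 1.47, 1.88, 2.54 and 3.42 TPM in KO replicates 1 to 7, against 2.18, 0.96, 1.12, 0.98, 2.58, 1.37 and 4.11 TPM in WT replicates 3 to 9. It was highest in its group in KO replicate 7, the KO library with the fewest B-cell transcripts, unlike the other genes tested. Its log2 fold change was 0.20 with an SE of 0.23 and an interval from -0.29 to 0.68 (limma, adjusted p = 0.73). It ranged from 0.11 without KO replicate 7 to 0.35 without WT replicate 9, and was 0.097 without the 3 libraries of few B-cell transcripts. Relative to endothelial markers Clec1a averaged -3.35 ± 0.24 in KO libraries and -3.38 ± 0.23 in WT libraries (SD; 2-sided exact permutation p = 0.83).

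Olr1 encodes LOX-1, a receptor for oxidised low-density lipoprotein that activated endothelium and macrophages express. It was listed at 0.01, 0.10, 0.02, 0.27, 0, 0.04 and 0 TPM in KO replicates 1 to 7, against 0.10, 0.03, 0.06, 0, 0.02, 0 and 0.21 TPM in WT replicates 3 to 9. It was under the filter in all 14 libraries, and the depth behind these values is unknown, so no difference could be read at this level. In the fit without a filter its log2 fold change was 0.0020 with an SE of 0.057 (limma, adjusted p = 0.99).

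Clec2d encodes Clr-b, a widely expressed ligand in mice for the inhibitory NK receptor encoded by Klrb1b. It stood at 158, 108, 157, 181, 171, 145 and 145 TPM in KO replicates 1 to 7, against 133, 90.0, 210, 198, 57.4, 128 and 128 TPM in WT replicates 3 to 9. It was the least variable member within KO, with a coefficient of variation of 15.4%, and 40.2% in WT. KO replicate 7 kept 145 TPM of Clec2d with few B-cell transcripts, whereas WT replicates 4 and 7 had the lowest values of all. For Clec2d the log2 fold change was 0.27, with an SE of 0.24 and an interval from -0.25 to 0.79 (limma, adjusted p = 0.67), and -0.038 without these 3 libraries. Klrb1b stood at 1.10 ± 0.47 TPM in KO and 0.67 ± 0.35 TPM in WT (SD, n = 7 each), a log2 fold change of 0.33 with an SE of 0.19 (limma, adjusted p = 0.52).

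Klrd1 encodes CD94, which pairs with NKG2 chains such as that of Klrc1 to read the class I molecule Qa-1. It stood at 31.0, 10.7, 24.8, 40.0, 35.2, 22.1 and 2.73 TPM in KO replicates 1 to 7, against 25.6, 1.29, 47.4, 13.1, 2.08, 15.7 and 17.7 TPM in WT replicates 3 to 9. The lowest values were those of KO replicate 7 and WT replicates 4 and 7, and the remaining values of the groups overlapped. Its log2 fold change and SE were both 0.71, with an interval from -0.82 to 2.23 (limma, adjusted p = 0.69), and 0.23 without these 3 libraries.

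Klrk1 encodes NKG2D, an activating receptor that signals through the adaptor of Hcst and reads stress-induced ligands. It stood at 13.04, 6.84, 12.86, 10.64, 12.54, 13.77 and 5.58 TPM in KO replicates 1 to 7, against 15.73, 0.37, 14.97, 8.27, 1.28, 11.14 and 11.82 TPM in WT replicates 3 to 9. KO replicate 7 kept 5.58 TPM of Klrk1, above the 0.37 and 1.28 TPM of WT replicates 4 and 7. For Klrk1 the log2 fold change was 0.61, with an SE of 0.53 and an interval from -0.53 to 1.75 (limma, adjusted p = 0.66), and -0.085 without these 3 libraries. All 10 NK cell markers had positive fold changes and 0 were called, beside 54.6% and 0.0204% of all genes tested. Relative to these markers, Klrk1 averaged 0.062 ± 0.27 in KO libraries and -0.18 ± 0.24 in WT libraries (2-sided exact permutation p = 0.090, adjusted p = 0.39 over the 9 differences). Klrd1 on that scale averaged 0.88 ± 0.74 in KO libraries and 0.54 ± 0.52 in WT libraries (2-sided exact permutation p = 0.32, adjusted p = 0.73). Clec2d minus B cell markers differed by -0.92 (2-sided exact permutation, adjusted p = 0.76), and leaving out KO replicate 7 alone gave -1.75, WT replicate 4 alone -0.27, WT replicate 7 alone -0.41 and all 3 together -0.36. Olr1 minus macrophage markers differed by 0.44 (adjusted p = 0.39), which is the -0.43 of the markers with its sign turned and says nothing of Olr1.

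How the genes varied from library to library was compared with 12 lists of cell type markers, using values centred within each group. Because 3 libraries stood apart, the correlations are given over the other 11. Each point is a library, whose tissue makeup all genes share, so these are descriptions. Clec7a was most like the T cell list (Pearson's r = 0.94) and the dendritic cell lists (0.91 and 0.89 for cDC1), ahead of the macrophage list (0.69). Clec12a was likewise most like T cells (0.89), with 0.83 for both dendritic cell lists and 0.53 for macrophages. Clec9a was most like the monocyte and the other dendritic cell lists (0.90 each), with 0.84 for its own cDC1 list. Clec1b followed the cDC1 list (0.93) and not the platelet list (0.28), although the platelet list was low, with 4 of its 12 markers passing the filter. Clec1a stood apart from the rest with 0.85 for endothelium and 0.09 for T cells. Klrd1 was most like T cells (0.89, against 0.69 for NK cells) and Klrk1 most like the other dendritic cells (0.89, with 0.82 for T and 0.81 for NK cells). Clec2d had no value above 0.46. Some of these ranks depended on leaving out the 3 libraries. With them kept, Klrk1 was most like NK cells (0.97, with 0.91 for the other dendritic cells). Clec7a and Clec12a were then most like cDC1 (0.88 each), with 0.80 and 0.81 for T cells. Clec1b was then most like the monocyte list (0.96, with 0.95 for cDC1), and Clec2d reached 0.68 for B cells. Clec9a, Clec1a and Klrd1 kept the same highest list.

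**Figure D5:**
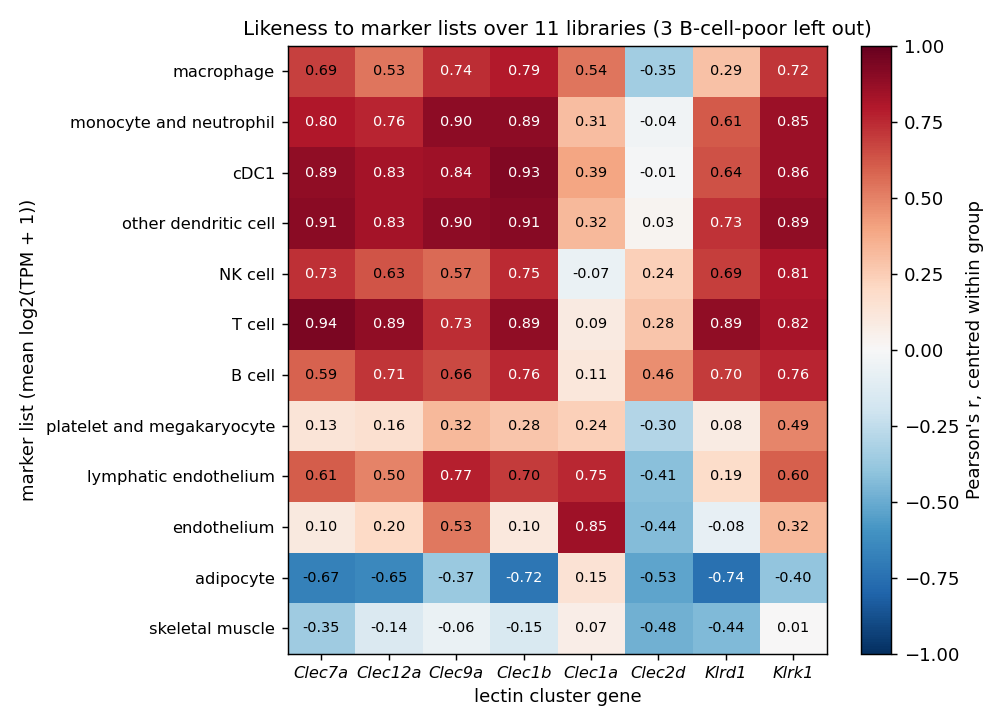
Pearson's r between each of 8 cluster genes (columns) and the mean log2(TPM + 1) of each of 12 marker lists (rows), centred within KO and WT, over the 11 libraries other than KO replicate 7 and WT replicates 4 and 7; red is positive and blue negative. Clec7a, Clec12a, Clec9a, Clec1b, Klrd1 and Klrk1 have values of 0.57 to 0.94 in the B, T and NK cell, dendritic, and monocyte and neutrophil rows. Clec1a is highest in the endothelium row (0.85), and Clec2d has no value above 0.46.

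Among the cluster genes themselves, over the same 11 libraries, Clec7a was most like Clec1b (r = 0.92) and Clec12a (0.88). Klrk1 was most like Clec9a (0.88), and Clec1a and Clec2d were unlike each other (-0.52). By a rule that took the genes most like a member over all 14 libraries, Clec7a was nearest to Pgm2 (r = 0.98, and 0.97 over the 11), Rbmxl1, Cdc5l, Eri1 and Tmem128 (0.97 each). Clec12a was nearest to Inpp5f (0.98), Taf1a, Crebzf and Supt20 (0.97 each) and Peli1 (0.96). Clec9a was nearest to Zcchc7 and Pwwp2a (0.98 each) and Ccnl1, Hps3 and Dmtf1 (0.97 each). Clec1b was nearest to Cd44, Slamf7 and Rps13-ps1 (0.98 each), Ighv5-17 (0.98) and Rab11fip1 (0.97). Klrd1 was nearest to Gm10275 and Rpl6 (0.99 each), Batf, Tnfrsf18 and Evl (0.98 each). Klrk1 was nearest to Gm12407 (0.98), Ly6d (0.97) and to Ly6c2, Spint2 and the cytotoxic granule gene Nkg7 (0.96 each). Its values fell most without the 3 libraries, to between 0.75 for Nkg7 and 0.88 for Spint2.

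Other lectin-like receptor genes of the complex were mostly low. The 30 listed summed to 17.8 TPM in KO replicate 7, 10.45 TPM in WT replicate 4 and 8.3 TPM in WT replicate 7. In the other 11 libraries they summed to between 29.6 and 83.7 TPM. Of the 30, 10 passed the filter. Among these, 0 were changed and 0 had an unadjusted p under 0.05, beside 0.0204% and 11.4% of all genes tested. Fold changes were positive for 8 and negative for 2, with a median of 0.35. The 4 with the smallest p were Klra1, an Ly49 receptor, at 1.65 ± 0.94 TPM in KO and 0.83 ± 0.46 TPM in WT, Klrb1b, Klre1, at 1.79 ± 0.93 TPM in KO and 1.22 ± 0.87 TPM in WT, and Clec2i, at 18.2 ± 10.7 TPM in KO and 10.4 ± 8.26 TPM in WT (SD, n = 7 each; limma, adjusted p between 0.45 and 0.64). Klra genes are near-identical copies between which reads may be split, so their values are uncertain. In RefSeq's order, 15 protein-coding genes lie between Clec2d and Klrk1 inclusive. Of those that encode no lectin-like receptor, Gabarapl1, an autophagy gene of the Atg8 family 3 places from Clec7a, stood at 99.5 ± 38.2 TPM in KO and 134 ± 33 TPM in WT (log2 fold change -0.48, SE 0.23; limma, adjusted p = 0.45), and Tmem52b had a mean of 0.0243 TPM. From the list of genes beside the cluster, Ybx3 and Magohb had fold changes of -0.32 and -0.11 and Pzp of 0.62 (limma, adjusted p between 0.62 and 0.82).

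Of the listed genes through which these receptors signal, 0 were called, beside 0.0204% of all genes tested. All 23 genes of the Dectin-1 signalling list passed the filter and 0 were changed. An unadjusted p under 0.05 was found for 0 of them, beside 11.4% of all genes. Their fold changes were positive for 21 and negative for 2, with a median of 0.30. Over all genes tested, 54.6% of fold changes were positive. The signalling list summed to 252 TPM in KO replicate 7, 198 TPM in WT replicate 4 and 272 TPM in WT replicate 7. In the other 11 libraries it summed to between 477 and 1181 TPM. These 3 libraries of few B-cell transcripts enter the means below, and their part in the signs was not tested. Prkcd, the kinase downstream of Syk that activates Card9, stood at 56.6 ± 24.7 TPM in KO and 35.9 ± 20.6 TPM in WT, and Malt1 at 17.4 ± 8.5 TPM in KO and 11.3 ± 7.6 TPM in WT. Card9 stood at 3.92 ± 0.81 TPM in KO and 3.01 ± 1.69 TPM in WT, and Traf6 at 6.54 ± 1.14 TPM in KO and 5.35 ± 2.12 TPM in WT (SD, n = 7 each; limma, adjusted p between 0.57 and 0.59 for the 4). B cells use Syk, Plcg2, Bcl10 and Malt1 too, and the summed B cell markers had medians of 1426 TPM in KO and 1014 TPM in WT, with 9 of 9 fold changes positive. Their part in these values was not tested. All 11 adaptors and phosphatases passed the filter and 0 were changed, with 8 positive and 3 negative fold changes. They too were low in those 3 libraries, with sums of 242, 197 and 296 TPM, beside 398 to 1057 TPM in the others. The 4 with the smallest p, Fyn, Btk, Lcp2 and Hcst, had fold changes of 0.45, 0.82, 0.65 and 0.72 (limma, adjusted p between 0.65 and 0.73).

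Of 19 ligands and partner receptors listed, 9 passed the filter and 0 were changed, beside 0.0204% of all genes tested. Positive fold changes were found for 2 and negative ones for 7, with a median of -0.24. Of the 9, 3 had an unadjusted p under 0.05, all lower in KO, beside 6.74% of all genes. Lgals9, galectin-9, a ligand of Dectin-1, stood at 59.9 ± 10.1 TPM in KO and 82.7 ± 19.1 TPM in WT (SD, n = 7 each), a log2 fold change of -0.44 with an SE of 0.16 (limma, adjusted p = 0.33). Vim, vimentin, stood at 859 ± 231 TPM in KO and 1174 ± 259 TPM in WT (-0.46, SE 0.20; limma, adjusted p = 0.42), and the third was Pdpn.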

How the data were processed

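RNA of adipose tissue from 14 mice was measured, 7 labelled KO and 7 labelled WT. Per the labels' protocols, RNA was extracted with Trizol and sequenced from Illumina TruSeq libraries. The authors deposited TPM values per gene, which sum to a fixed total in each library; the submitters' processing notes list Bowtie 0.12.2 and the builds mm8 and mm9 without saying what each did, and the program behind the TPM is not given in the sources used here. Depth is unknown, so spread between libraries is the only error. Rows of the same name were summed, and the 14719 genes that reached 1 TPM in 7 libraries or more entered the test on log2(TPM + 1), a scale that understates changes of low genes, with limma-trend (limma 3.58.1, R 4.3.3, robust prior, 2-sided, Benjamini-Hochberg over all genes tested). Differences between genes within a library were tested by exact permutation over 3432 ways to part the libraries; 0.000583 is the smallest p. P-values set a KO minus WT difference against the spread between these libraries. On simulated data made from these residuals, with 200 of 14719 genes changed, the limma test recovered 57.4% of 2-fold and 90.0% of 4-fold changes. These are averages over genes picked at random. They do not give the recovery for single cluster genes, whose SEs ran from 0.22 for Clec12a to 0.71 for Klrd1. The members and gene lists were chosen with earlier results of these data known. Named genes are the members, the 4 of each list with the smallest p, the 5 most like 6 of the members, and defining markers. Gene order and promoters came from RefSeq (GRCm38.p6); they carry no coordinate of the deposited values. Alternatives covered pseudocounts, filters, scalings, libraries left out, weights, a replicate block and covariates.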

Additional observations from a re-analysis of the deposited data

Results flagged for a closer look

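In 62 groups of 7 libraries, 6 held a library far from the other 6 by Dixon's test; chance flags about 1 group in 20. Olr1 was at 0.27 TPM in KO replicate 4 and at 0 to 0.10 TPM in the other KO libraries. In KO replicate 7, Clec2d minus the B cell markers was 6.35 (the others -0.16 to 1.44), Clec7a minus Klrd1 was 0.49 (the others -2.21 to -1.22), and Clec12a minus the other dendritic cell markers was 0.49 (the others -1.32 to -0.74), all on the log2 scale. Clec12a minus the monocyte and neutrophil markers was 0.12 in KO replicate 3 (the others 0.51 to 0.66). Clec9a minus the cDC1 markers was -0.91 in WT replicate 7 (the others -1.57 to -1.33).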

How the results depend on the processing

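The sign of the Clec7a fold change held in all 28 alternatives, between -0.65 and -0.33 with 1 library left out (adjusted p 0.48 to 0.74), and its extremes were -0.75 with array weights (adjusted p 0.064) and -0.04 with the macrophage marker score as a covariate. That covariate raised the count of changed genes from 3 to 2860, 19.4% of those tested and 15.9% higher in KO, and 3 cluster genes passed, all higher: Clec12a at 0.60, Clec9a at 0.71 and Klrk1 at 1.29 (adjusted p 0.025, 0.031 and 0.043). In the other alternatives 0 cluster genes passed. The count of changed genes was 823 with array weights, 19 with quantile normalization, 9 with median-ratio scaling, 6 without mitochondrial genes, 1 with no filter or with rows as deposited, 0 without KO replicate 7 and WT replicates 4 and 7, 0 in the 10 libraries with shared numbers, and 0 to 6 with 1 library left out.

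Signs near 0 turned. Clec1b had a fold change of 0.063 with a pseudocount of 0.1, -0.49 without KO replicate 7 and WT replicates 4 and 7, 0.40 in the 10 libraries with shared numbers (with and without the replicate block), 0.54 with the macrophage covariate, and -0.34 to 0.11 with 1 library left out. Without those 3 libraries, Clec9a stood at -0.0042, Clec2d at -0.038 and Klrk1 at -0.085, against ranges of 0.01 to 0.35, 0.08 to 0.39 and 0.21 to 0.81 with 1 library left out. Of the differences within a library, Clec7a minus macrophage markers was 0.038 in the 10 libraries (with and without the block, as below) and -0.16 to 0.10 with 1 left out. Clec9a minus cDC1 markers was -0.046 with the median of the markers, -0.043 in the 10 and -0.085 to 0.078. Clec1b minus platelet markers was 0.12 and 0.0091 with pseudocounts of 0.1 and 0.5, 0.46 in the 10, -0.39 without the 3 and -0.25 to 0.13. Clec1a minus endothelium markers was -0.10 without the 3 libraries and -0.03 to 0.095. Added after the data were seen, Clec12a minus cDC1 and minus other dendritic cell markers were -0.10 and -0.045 in the 10 libraries, and -0.044 to 0.22 and -0.084 to 0.28 with 1 left out. Clec12a minus macrophage markers kept its sign, at 0.70 to 0.85 with 1 left out (adjusted p 0.010 to 0.031), and did not pass without the 3 libraries (0.75) or in the 10 (0.60). Clec7a minus Clec12a did not pass in the 10 (-0.56). Fewer libraries entered those fits. In the 10 the differences were also smaller, at -0.56 beside -0.80 over all 14 for Clec7a minus Clec12a. For Clec12a minus macrophage markers they were 0.60 beside 0.75. The cause was not tested.

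The replicate numbers share no stated litter or day, and deviations of same-numbered libraries correlated at 0.09, -0.68, 0.58, -0.08 and 0.78 for numbers 3 to 7, so they were not taken as pairs. With the replicate block limma called 0 genes; 5 pairs cannot go below an exact p of 0.0625, and the values were 0.60 for Clec12a minus macrophage markers and -0.56 for Clec7a minus Clec12a. Depth is unknown and limits Olr1 most.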
